A study of Homo sapiens with 6 samples.

Results

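Glycine and the small neutral amino acids alanine, serine and glutamine cross cell membranes through a limited number of carrier proteins, and the messenger RNA of 10 of these carriers was followed here in HepG2 cells. HepG2 is an established human liver cancer line, and the libraries are labelled as wild-type hepatocarcinoma cells. The cells received vehicle or 10 mM glycine for 24 h, with 3 libraries per group from replicates that the series' design describes as independent, so both groups share the line, the genotype and the exposure time. The medium of both groups already contains glycine, so the treatment added to an existing supply, and 1 tumour line stands for the liver cell. The 10 carriers are SLC6A9, SLC7A10, SLC36A1, SLC36A4, SLC38A1, SLC38A2, SLC38A4, SLC1A4, SLC1A5 and SLC25A38, out of 57500 genes in the count files. They were grouped by function, but the set was chosen from the measured difference between glycine and vehicle in these same 6 libraries. Their values in this contrast are therefore a description, with no p-value.

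The libraries held 31795489 to 58815986 counts, and 1 count was worth 0.0171 to 0.0313 CPM. This scale, used below, gives a gene's count as a share of the library's scaled total. Of 9 hepatocyte genes, all were detected and 2 were called lower with glycine, against 6.54% of all tested genes. Their summed level was 29594 to 33653 CPM with vehicle and 25411 to 29108 CPM with glycine, which does not overlap, and the part of this difference in the results below was not tested. Of 9 genes of other cell types, LYZ was high in every library and called lower (2123 to 2326 CPM with vehicle, 1690 to 1849 with glycine), COL1A1 was low and called higher (mean 2.15 and 4.38 CPM) and PECAM1 was not called, while the other 6 did not exceed 0.389 CPM, with CD3E and INS at 0 counts. CPM values are shares of a library, so fewer cells with a transcript and less of it per cell cannot be told apart.

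As background, SLC6A9 (GlyT1) is the sodium- and chloride-coupled glycine transporter of the plasma membrane. SLC7A10 (Asc-1) exchanges glycine, alanine and serine, including D-serine, and sits in the membrane with the heavy chain SLC3A2. SLC38A1, SLC38A2 and SLC38A4 are sodium-coupled carriers of system A, SLC1A4 and SLC1A5 are sodium-dependent exchangers of small neutral amino acids, SLC36A1 and SLC36A4 are proton-linked or lysosomal carriers, and SLC25A38 brings glycine into mitochondria for haem synthesis. In amino acid shortage, system A carriers and exchangers are known to be induced through ATF4, which binds a composite element shared with C/EBP factors, while hypertonic medium acts through NFAT5 and its TonE element.

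The sequences before the annotated starts of the 3 members that were called lower are shown. With them is the SLC1A4 window that holds a match to the composite element. Each is 260 bases, 250 before and 10 after a RefSeq start on GRCh38.p14, read 5′ to 3′ on the gene's strand, and capitals mark a match to the composite element (here on the opposite strand). The windows are chr1:44031453-44031712 (minus strand) for SLC6A9, chr19:33225841-33226100 (minus strand) for SLC7A10, chr12:46825988-46826247 (minus strand) for SLC38A4 and chr2:64989149-64989408 (plus strand) for SLC1A4. Another SLC1A4 window, chr2:64988229-64988488, holds no match and is not shown.
SLC6A9: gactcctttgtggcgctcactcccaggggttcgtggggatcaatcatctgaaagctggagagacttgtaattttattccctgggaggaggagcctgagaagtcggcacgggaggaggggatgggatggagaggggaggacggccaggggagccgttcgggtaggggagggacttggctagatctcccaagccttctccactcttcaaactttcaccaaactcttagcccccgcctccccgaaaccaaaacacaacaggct
SLC7A10: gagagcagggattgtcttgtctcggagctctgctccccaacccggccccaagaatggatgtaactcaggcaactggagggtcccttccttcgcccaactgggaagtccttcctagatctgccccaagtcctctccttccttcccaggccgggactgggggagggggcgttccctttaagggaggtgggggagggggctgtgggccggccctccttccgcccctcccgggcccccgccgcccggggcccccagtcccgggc
SLC38A4: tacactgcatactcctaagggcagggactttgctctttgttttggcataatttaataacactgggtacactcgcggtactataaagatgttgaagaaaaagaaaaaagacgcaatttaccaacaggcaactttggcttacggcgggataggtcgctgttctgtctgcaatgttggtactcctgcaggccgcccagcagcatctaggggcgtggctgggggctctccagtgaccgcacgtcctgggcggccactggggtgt
SLC1A4: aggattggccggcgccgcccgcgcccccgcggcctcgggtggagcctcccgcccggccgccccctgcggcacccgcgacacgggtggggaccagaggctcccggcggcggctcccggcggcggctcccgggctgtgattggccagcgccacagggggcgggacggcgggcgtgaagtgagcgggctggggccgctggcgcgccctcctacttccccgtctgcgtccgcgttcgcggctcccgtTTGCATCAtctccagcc

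All 10 members had a RefSeq start, with 16 windows in all. On both strands, TGATGNAA (the composite element) was in 3 of the 16 windows, at SLC38A1, SLC1A4 and SLC1A5, and in 3.29% of 35116 promoter windows of this length. The TonE core TGGAAA was in 0 of the 16 and in 18.7% of all windows. The E-box CACGTG was in 3 of the 16, at SLC36A1, SLC1A5 and SLC25A38, and in 6.6% of all. The windows of SLC6A9, SLC7A10 and SLC38A4 held none of these letter strings, which says only that they are not in these bases. The SLC7A10 window was 68.5% G and C, against a median of 58.1% over all windows. The printed windows of SLC6A9 (57.3%) and SLC38A4 (51.9%) were below this median. That of SLC1A4, which was not called, was higher still (78.8%).

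SLC7A10 had the widest difference of the 10. Its level was 7.14, 7.71 and 8.76 CPM in the vehicle libraries and 1.0025, 1.35 and 1.02 CPM in the glycine libraries. Every glycine library was below every vehicle library, on 32 to 79 reads against 250 to 315. The means were 7.87 ± 0.825 and 1.12 ± 0.196 CPM (SD, n = 3 each), a log2 change of -2.77 ± 0.15 (s.e.), or 6.84-fold lower. Only 2 of the 15492 tested genes had a more negative log2 change. The gene (ENSG00000130876) lies on chromosome 19 at 33208664 to 33225850, minus strand, in the files' GRCh38 annotation, and 6.56% of its exon length is shared with LRP3 on the other strand. LRP3 had 177 CPM in vehicle libraries and 159 CPM in glycine libraries on average, and its log2 change of -0.16 was not called (edgeR adjusted p = 0.145). Within 150 kb of SLC7A10, 7 of 17 other genes were tested, with log2 changes from -0.16 to 0.51. Of these, RHPN2 was called higher, from 36.7 ± 2.07 to 42.9 ± 1.53 CPM (log2 change 0.23, edgeR adjusted p = 0.0424), and the other 6 were not called. The heavy chain SLC3A2 was at 271 to 282 CPM with vehicle and 286 to 300.0 CPM with glycine, and its log2 change of 0.09 ± 0.06 (s.e.) was not called (edgeR adjusted p = 0.349).

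SLC6A9 was lower by a smaller factor and with little scatter. Its level was 33.9, 38.7 and 36.0 CPM with vehicle and 19.9, 20.2 and 19.5 CPM with glycine. The groups did not overlap, and the 3 glycine libraries lay within 1 CPM of each other. The means were 36.2 ± 2.43 and 19.9 ± 0.356 CPM (SD, n = 3 each), a log2 change of -0.86 ± 0.07 (s.e.). It ranked 187 of 15492 genes from the largest fall. The gene (ENSG00000196517) lies on chromosome 1 at 43991500 to 44031467, minus strand, and shares 7.83% of its exon length with CCDC24, whose mean was only 2.20 CPM in vehicle and 2.43 CPM in glycine libraries.

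**Figure D1:**
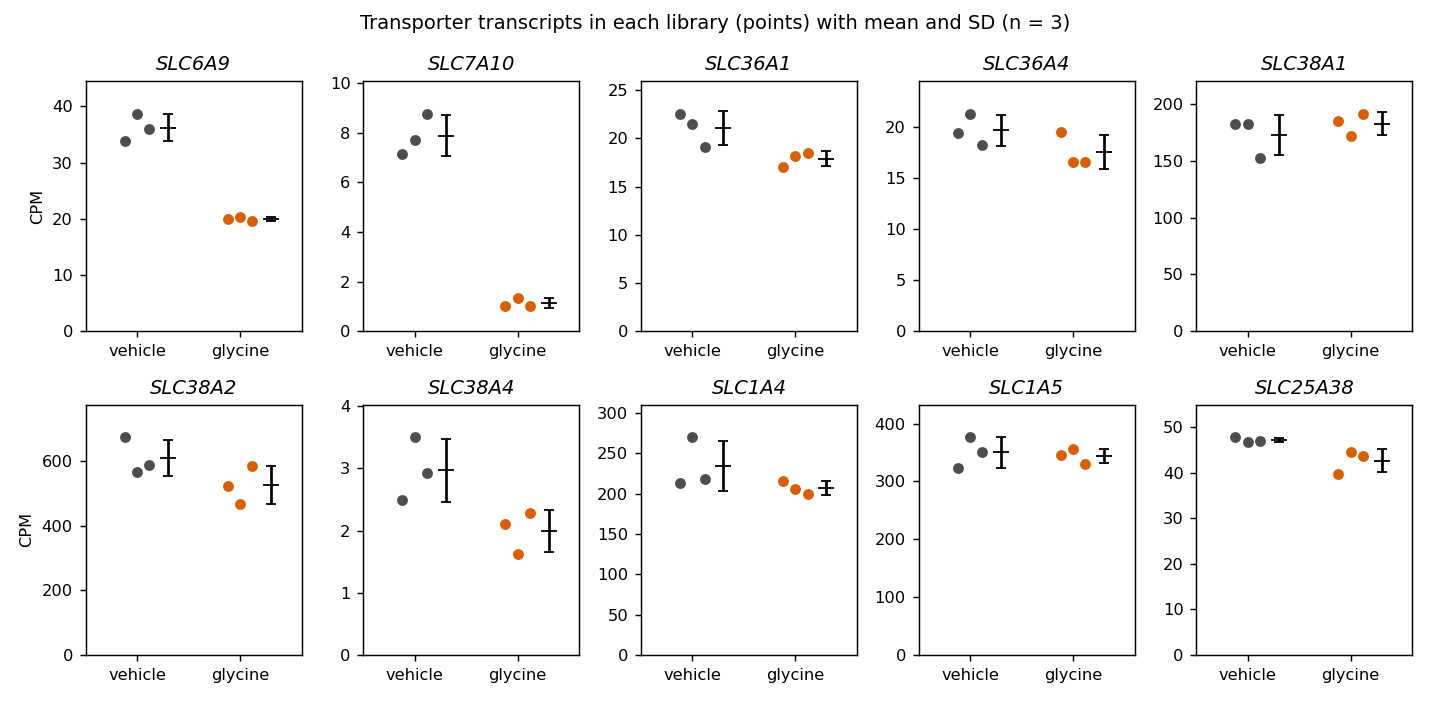
Level of each of the 10 carriers in CPM for the 3 vehicle and 3 glycine libraries, 1 panel per gene, with points for libraries and bars for the mean and SD of each group, on axes that start at 0. SLC7A10 (7.14 to 8.76 against 1.0025 to 1.35 CPM) and SLC6A9 (33.9 to 38.7 against 19.5 to 20.2 CPM) stand clear of overlap, whereas SLC1A5 and SLC38A1 do not separate.

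The proton-linked and lysosomal carriers differed little. SLC36A1 (PAT1), which exports small amino acids from lysosomes, was at 22.6, 21.5 and 19.1 CPM with vehicle and 17.0, 18.1 and 18.5 CPM with glycine. The groups were separate, but the log2 change of -0.23 ± 0.08 (s.e.) was not called. Without vehicle replicate 3 it was -0.30 ± 0.08 (s.e.) and was called. SLC36A4 (PAT4), which carries proline and tryptophan, was at 19.4, 21.3 and 18.2 CPM with vehicle and 19.5, 16.6 and 16.5 CPM with glycine. Its first glycine library lay within the vehicle range, and the log2 change of -0.17 ± 0.09 (s.e.) was not called.

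The 3 system A carriers are neighbours on chromosome 12, on the minus strand, with gaps of 88.2 kb between SLC38A1 and SLC38A2 and 392 kb between SLC38A2 and SLC38A4, yet their levels were far apart. SLC38A2 (SNAT2), the abundant one, was at 674, 568 and 589 CPM with vehicle and 525, 467 and 585 CPM with glycine. The third glycine library lay within the vehicle range, and the log2 change of -0.22 ± 0.09 (s.e.) was not called. SLC38A1 (SNAT1), a glutamine and alanine carrier, was at 182, 183 and 152 CPM with vehicle and 185, 172 and 191 CPM with glycine. Its log2 change of 0.08 ± 0.08 (s.e.), not called, was the only one of the 10 above 0. SLC38A4 (SNAT4), a carrier known from liver, was at 2.48, 3.50 and 2.92 CPM with vehicle and 2.10, 1.62 and 2.27 CPM with glycine. The groups were separate at this low level, on 67 to 122 reads per library, and the log2 change of -0.59 ± 0.18 (s.e.) was called. That call was lost with total count scaling (-0.57) and without vehicle replicate 2 (-0.45), vehicle replicate 3 (-0.60), glycine replicate 1 (-0.63) or glycine replicate 2 (-0.43). Of 9 other genes in the region, 2 were tested, with log2 changes of -0.19 and -0.13.

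The exchangers were expressed strongly in both groups. SLC1A5 (ASCT2), the main glutamine exchanger of many tumour cells, was at 324, 376 and 351 CPM with vehicle and 345, 356 and 331 CPM with glycine. The glycine values lay inside the vehicle range, and the log2 change of -0.03 ± 0.07 (s.e.), not called, became 0.03 without vehicle replicate 2. SLC1A4 (ASCT1), which exchanges serine and alanine, was at 213, 270 and 219 CPM with vehicle and 216, 206 and 199 CPM with glycine. Its second vehicle library was the highest, the groups overlapped, and the log2 change of -0.18 ± 0.09 (s.e.) was not called. The mitochondrial carrier SLC25A38 was at 47.8, 46.8 and 47.0 CPM with vehicle and 39.8, 44.5 and 43.6 CPM with glycine. All 3 glycine libraries were below the vehicle libraries by a small margin, with a log2 change of -0.15 ± 0.07 (s.e.) that was not called.

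A call means an edgeR quasi-likelihood adjusted p under 0.05 over all 15492 tested genes. All 10 members passed the filter on low counts. Of them, 3 were called lower (SLC7A10, SLC6A9 and SLC38A4), where 6.54% of all tested genes were called lower and 13.3% were called in either direction. With edgeR 0 members were called higher, against 6.71% of all tested genes, with 0 higher at an unadjusted p under 0.05 and 0 with DESeq2 or limma. In 5 members every glycine library was below every vehicle library, against 14.4% of tested genes, and in 0 every glycine library was above, against 17.2%. The median log2 change was -0.20 over the members and 0.0035 over all tested genes. Because the members were picked on this contrast, nothing is read from these counts.

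**Figure D2:**
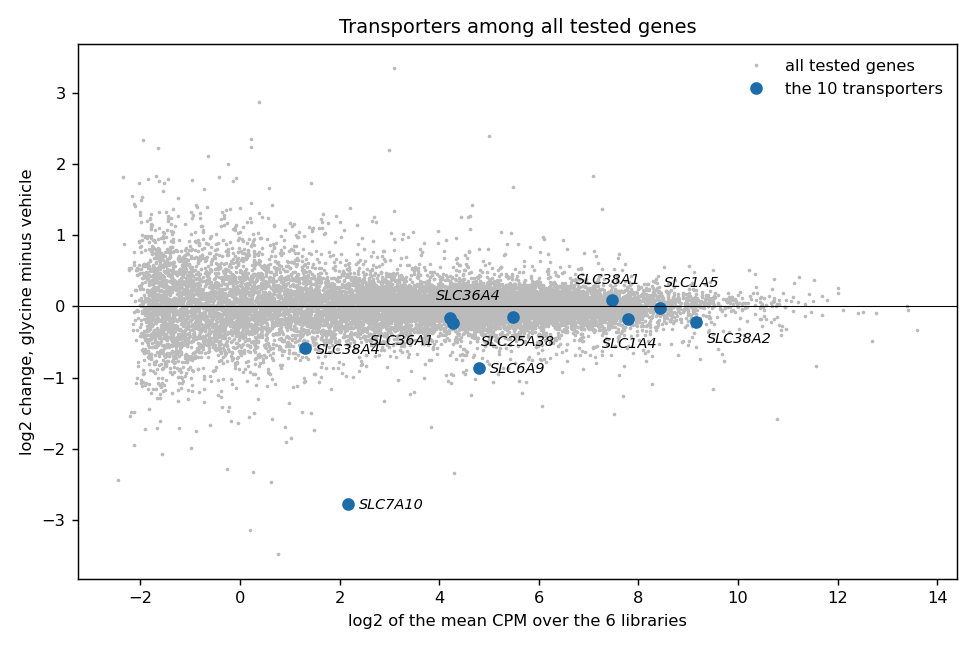
Log2 change, glycine minus vehicle, against the log2 of the mean CPM over the 6 libraries for the 15492 tested genes, with the 10 carriers marked. SLC7A10 lies at -2.77, among the most negative values, and SLC1A5 (-0.03) and SLC38A1 (0.08) are the carriers nearest to the median of all genes, 0.0035.

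To compare genes with each other, CPM was divided by the length of all annotated exons in kilobases. On this per-length scale the vehicle levels ran from 105 for SLC1A5 and 92.4 for SLC38A2, whose ranges over libraries overlapped, through 33.7 for SLC1A4, 21.9 for SLC25A38, 17.2 for SLC38A1 and 7.01 for SLC6A9. SLC36A1 (3.01) and SLC7A10 (2.53) overlapped, and SLC36A4 (2.03) and SLC38A4 (0.716) followed. With glycine, SLC7A10 was the lowest at 0.361 and overlapped with SLC38A4 at 0.482, and SLC25A38 (19.8) and SLC38A1 (18.3) overlapped. The 10 levels summed to 286 ± 7.87 with vehicle and 260 ± 5.56 with glycine (SD, n = 3 each). Of this sum, SLC1A5 made up 36.8% ± 2.37 and 39.8% ± 2.28, and SLC38A2 made up 32.4% and 30.6%. SLC6A9 made up 2.45% and 1.49%, and SLC7A10 made up 0.887% and 0.139%. The order of the leading pair depends on the division by length, since in CPM SLC38A2 (610 and 526) was above SLC1A5 (350.4 and 344). The carriers called lower were thus minor shares of the summed transcript level in both groups.

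**Figure D3:**
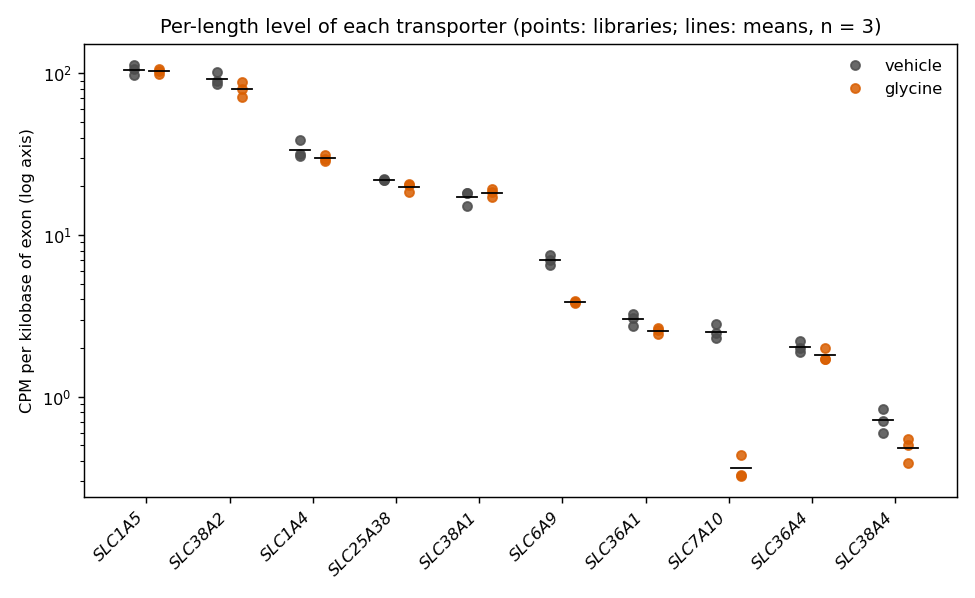
Level of each carrier per kilobase of exon in vehicle and glycine libraries, on a log axis, with points for libraries and lines for group means. SLC1A5 (105 and 103) and SLC38A2 (92.4 and 79.6) are the highest in both groups, and SLC7A10 moves from 2.53 to 0.361.

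Among 9111 tested genes averaging 10 CPM or more over the libraries, the 5 whose pattern over the 6 libraries was nearest to that of SLC6A9 were ODAM, LRRC37BP1, HEPACAM, PNPLA6 and CREB3L3. Likeness was the Euclidean distance between log2 levels, each set relative to its vehicle mean, and ran from 0.124 for ODAM to 0.174 for CREB3L3. Their log2 changes were -0.86, -0.91, -0.86, -0.77 and -0.77 in that order. The search itself selects for a change like that of SLC6A9, so nothing is read from these values.

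Other amino acid transporters gave a setting for the members. Of 52 such genes, 35 were tested, of which 8 were called lower, 1 was called higher and 26 were not called, with a median log2 change of -0.04. Over all tested genes, 6.54% were called lower and 6.71% higher. This list, too, was drawn up with earlier results of these data known, so nothing is read from its counts as a set. SLC1A2, a glutamate transporter, fell from 17.4 ± 1.66 to 8.63 ± 0.41 CPM (log2 change -1.01 ± 0.09 s.e., edgeR adjusted p = 1.07e-05). SLC16A10, an aromatic amino acid carrier, fell from 25.3 ± 0.509 to 17.2 ± 1.17 CPM (log2 change -0.56, edgeR adjusted p = 0.000275). Of the mitochondrial sideroflexins, which include the serine carrier SFXN1, SFXN3 fell from 57.2 ± 0.968 to 38.8 ± 1.57 CPM (log2 change -0.56, edgeR adjusted p = 7.31e-05). The mitochondrial aspartate and glutamate carrier SLC25A12 was the 1 that rose, from 8.48 ± 0.574 to 12.7 ± 0.272 CPM (log2 change 0.58, edgeR adjusted p = 0.000659). In the SLC38 family outside the members, 2 of 8 were called lower, against 3 with DESeq2 and 2 with limma. SLC38A5 went from 98.5 ± 8.01 to 84.4 ± 2.65 CPM with groups that did not overlap. Its log2 change of -0.22 was just outside the threshold (edgeR adjusted p = 0.05004). SLC38A3, a glutamine carrier, had a log2 change of -0.34 (edgeR adjusted p = 0.0145, and 0.0578 without glycine replicate 3), and SLC38A11 had -0.48 (edgeR adjusted p = 0.0237, and up to 0.111 when a library was left out). The calls of SLC6A14 (log2 change -0.37), SLC6A19 (-0.91) and SFXN1 (-0.21) had edgeR adjusted p-values of 0.0433, 0.0441 and 0.0348, which rose to as much as 0.166, 0.162 and 0.114 when a library was left out. The SLC6A14 call was also lost with total count scaling (edgeR adjusted p = 0.0695), that of SLC6A19 with DESeq2 (adjusted p = 0.082) and limma with voom (adjusted p = 0.0556), and that of SFXN1 with no filter on low counts (edgeR adjusted p = 0.0607). With edgeR 0 of the 6 tested heteromeric exchangers and partners were called, with 1 higher at an unadjusted p under 0.05 and 0 with DESeq2 or limma. The neuronal glycine transporter SLC6A5 and the vesicular carrier SLC32A1 had 0 counts in every library.

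The osmolyte transporters SLC6A12, SLC5A3 and SLC6A6, which carry betaine, myo-inositol and taurine, were all called lower, with log2 changes of -2.33, -0.89 and -0.48 (edgeR adjusted p = 3.11e-08, 0.000607 and 0.00251). Of all tested genes, 6.54% were called lower. These transporters were listed with earlier results of these data known, so nothing is read from their calls as a set. Of the known regulators ATF4, CEBPB, NFAT5 and MYC, edgeR called 0, with 0 at an unadjusted p under 0.05 and 0 with DESeq2 or limma. ATF4 had a log2 change of 0.05 (edgeR adjusted p = 0.698) and NFAT5 one of -0.28 ± 0.17 s.e. (edgeR adjusted p = 0.306), called only when no filter on low counts was applied. These are messenger RNA levels, and the activity of the regulators was not measured.

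**Figure D4:**
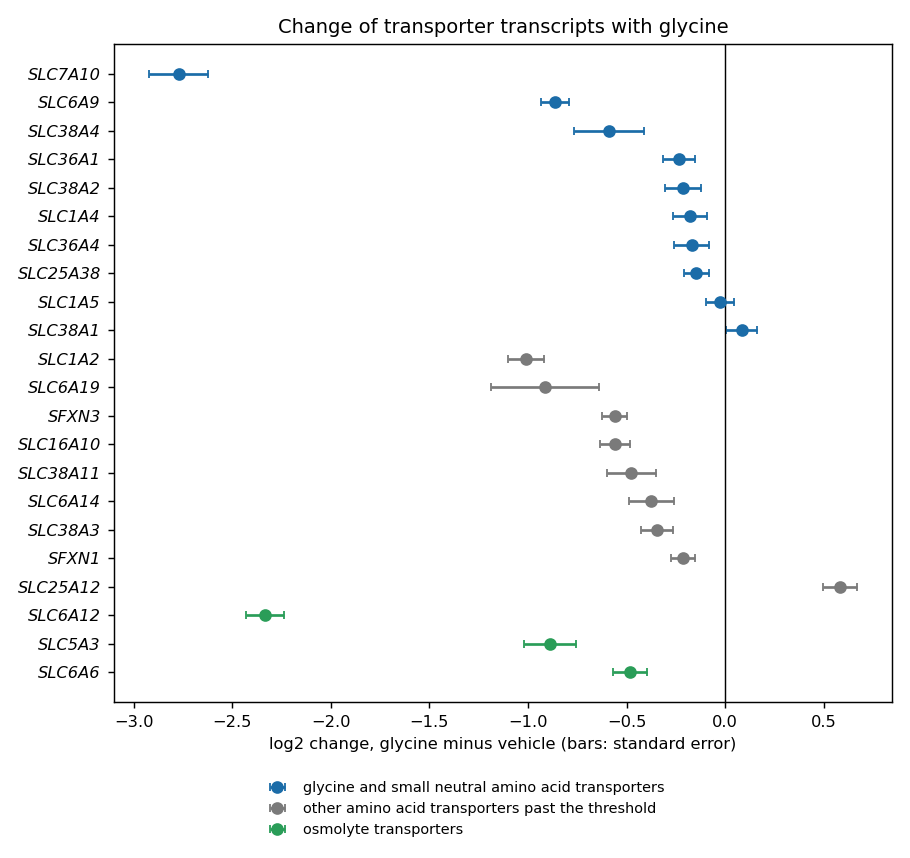
Log2 change, glycine minus vehicle, with bars for its standard error, for the 10 carriers (blue), the 9 other amino acid transporters that were called (grey) and the 3 osmolyte transporters (green). SLC7A10 (-2.77) and SLC6A12 (-2.33) lie farthest below 0, and SLC25A12 (0.58) is the only called gene above it.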

How the data were processed

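RNA from HepG2 cells given vehicle or 10 mM glycine for 24 h was sequenced, with 3 libraries per group assigned from their treatment labels. The authors deposited raw counts per gene. The submitters' processing notes name Trimmomatic 0.36, STAR 2.5.2b, featureCounts of Subread 1.5.2 and GRCh38. The annotation release and the strand setting are not given in the sources used here. How reads in exons shared by genes on opposite strands were counted is therefore not known. Division by TMM-scaled library totals gave counts per 1e6 counts (CPM). Libraries were checked for duplicate libraries, and none was found.

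Genes with too few reads (edgeR's filter, minimum count 10, minimum total 15) were left out, and 15492 were tested with edgeR 4.0.16 quasi-likelihood tests in R 4.3.3 with Benjamini-Hochberg adjustment at 0.05. The s.e. is the log2 change divided by the square root of F. The code was tested on simulated data. Alternatives were 3 other scalings, 2 other filters, DESeq2 1.42.0, limma 3.58.1 with voom, the replicate number as a block, and leaving out each library. The p-values measure the spread between these libraries.

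The members and gene lists were chosen with earlier results of these data known. All members, called genes of the lists, osmolyte carriers and regulators were named. Likeness used log2(CPM + 0.1). The neighbouring genes, shared exons and promoter motifs were looked at after the values were seen. Promoter sequences are from RefSeq, GRCh38.p14.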

Additional observations from a re-analysis of the deposited data

How the results depend on the processing

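The number of members called lower was 2 or 3 under all 14 alternatives, and 0 were called higher. SLC7A10 and SLC6A9 were called in all of them, with log2 changes from -2.96 to -2.69 and from -0.92 to -0.81. The members were picked on this contrast in these same libraries, so these refits describe the calls and do not test them. The number of other amino acid transporters called lower, 8, ran from 4 to 7 when 1 library was left out, with 4 without glycine replicate 2 or glycine replicate 3 and 5 without vehicle replicate 1 or glycine replicate 1. With no filter on low counts, 1 regulator (NFAT5) was called lower. Without division by length, the share of SLC1A5 was 23.4% with vehicle and 25.3% with glycine, and SLC38A2 was the highest of the 10. When 1 library was left out, the genes called lower over all tested genes ran from 655 to 1010 and those called higher from 587 to 926, against 1013 and 1040 with all libraries. These fits have fewer samples, and the cause of the other shifts was not tested. Same-numbered libraries did not deviate together (correlations -0.058, -0.027 and -0.003). Between vehicle and glycine libraries of unlike number the correlations ran from -0.198 to 0.214. Blocks that join unlike numbers were not tested. With the replicate number as a block, 3 members were called lower and 0 higher, and 7 and 1 of the other transporters, with the call of SFXN1 lost (edgeR adjusted p = 0.067). The lowest counts behind a member were 32 to 79 reads per glycine library for SLC7A10 and 67 to 122 reads per library for SLC38A4.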
